A study of Mus musculus with 54 samples.

Results

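Acaca and Acacb encode the acetyl-CoA carboxylases, and their messages were followed in the livers of mice that lack folliculin (Flcn) in hepatocytes. The members are the rows with these 2 symbols in a table of 13815 measured genes, with the TFE3 and HA peaks at each gene in 8 deposited peak lists. They were chosen because the isoforms parted with loss of Flcn, so the values of Flcn-deleted against Control liver chose them and are given as a description, without a test. In the whole series, 54 libraries were labelled, of which 15 were liver RNA-seq libraries in 5 groups of 3.

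Acetyl-CoA carboxylase is a biotin enzyme that turns acetyl-CoA into malonyl-CoA, the committed step of fatty acid synthesis. The cytosolic isoform, encoded by Acaca, supplies malonyl-CoA to fatty acid synthase. The isoform encoded by Acacb is held at the outer face of mitochondria, where malonyl-CoA blocks carnitine palmitoyltransferase 1 and so the entry of fatty acids into oxidation. In liver both isoforms are switched off by AMP-activated protein kinase, and both genes are known targets of the lipogenic transcription factor SREBP-1c.

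DKO liver came from Flcn lox/lox;Tfe3-/Y mice, in which Tfe3 is deleted in the whole body, given an AAV8 virus with Cre under the TBG promoter. LiFKO liver came from Flcn lox/lox mice given the same Cre virus, and Control liver from Flcn lox/lox mice given AAV8-TBG-GFP. The TBG promoter is active in hepatocytes, so the other cells of the liver keep Flcn, and every RNA mouse received 1.5e11 genome copies of 1 virus. About a week later the mice ate AMLN diet (DKO, LiFKO and Control) or normal chow (LiFKO and Control) for 17 to 18.5 weeks, and they fasted for 4 to 6 hours before the liver was taken. RNA-seq held DKO liver on AMLN diet only and no liver lacking Tfe3 with Flcn intact. As DKO mice were bred as their own line, the effects of line and of genotype cannot be told apart. The labels give no age and do not say that each library is a separate mouse, so the p-values measure the spread between libraries, which may be technical in part. TFE3 ChIP-seq was done on fed mice on chow (LiFKO and Control, 1.5e11 genome copies) or after 9 days of FPC diet. On FPC diet, LiFKO+1c and Control+1c mice had in addition 1.0e11 genome copies of an AAV8 virus for HA-tagged nuclear SREBP-1c under a liver ApoE/AAT promoter beside 1.5e11 of the Cre or GFP virus, and LiFKO and Control mice without it had 2.5e11 of Cre or GFP virus. HA ChIP-seq was done in LiFKO+1c and Control+1c liver.

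The authors' RNA values are log2 values made equal in distribution between libraries, with no counts, so the depth is unknown. A difference of 1 is a doubling, and levels of different genes are not compared, because no correction for gene length is stated. Flcn, the deleted gene, was at 9.12, 9.45 and 9.91 in AMLN DKO, 10.25, 10.56 and 10.43 in AMLN LiFKO and 10.98, 10.92 and 11.06 in AMLN Control, and at 10.55, 10.14 and 10.53 in chow LiFKO and 11.33, 11.55 and 11.44 in chow Control. Every library given Cre lay below every GFP library of its diet. The log2 difference of Flcn was -1.49 (SE 0.17, adjusted p = 0.000882) for DKO against Control, -0.57 (SE 0.17, adjusted p = 0.0257) for LiFKO against Control on AMLN diet and -1.03 (SE 0.17, adjusted p = 0.000394) on chow by limma. Tfe3 was at 10.20, 9.88 and 9.89 in AMLN DKO, within 0.02 on average of AMLN LiFKO (log2 difference -0.01, SE 0.12), so the whole-gene value does not check its deletion. All 8 hepatocyte markers were measured. Their summed log2 level ran from 21.99 to 22.02 in AMLN DKO, 21.38 to 21.47 in AMLN LiFKO and 21.97 to 22.13 in AMLN Control, and from 21.21 to 21.65 in chow LiFKO and 22.06 to 22.15 in chow Control. Alb, which was at the top value of the table in every DKO and Control library, carries most of this sum. It was at 20.65 in every AMLN LiFKO library, which is also the mean of Scd1 in AMLN Control and AMLN DKO. As distributions were made equal, the size of this gap is set by rank at the top of the table. In LiFKO against Control 3 of the 8 markers were higher on average and 5 lower on either diet, and by limma Alb and Serpina1a were called lower on chow and none on AMLN diet.

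Acacb was the isoform with the larger difference with loss of Flcn. It was at 14.93, 14.86 and 14.78 in chow LiFKO, against 11.17, 10.38 and 11.00 in chow Control. On AMLN diet it was at 14.50, 14.23 and 14.86 in LiFKO, against 13.14, 13.00 and 13.16 in Control. In each diet every LiFKO library was above every Control library, as in 41.9% of all genes on chow and 35.4% on AMLN diet in either direction, and nothing is read from this because the genes were chosen on it. The log2 difference was 4.01 (16.1-fold, rank 50 from the top of 13815 genes) on chow and 1.43 (2.69-fold, rank 258) on AMLN diet.

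Acaca had no such gap on chow. It was at 12.07, 12.24 and 12.83 in chow LiFKO, against 12.45, 12.23 and 11.90 in chow Control, and the groups overlapped. On AMLN diet it was at 13.26, 13.24 and 12.99 in LiFKO, against 13.64, 13.34 and 13.69 in Control. The LiFKO libraries were the lower ones there, without overlap, as in 35.4% of all genes in either direction. The log2 difference of Acaca was 0.19 on chow and -0.39 on AMLN diet, both inside the range from the 5th to the 95th percentile of all genes. The chow value ran from -0.04 to 0.34 when 1 library was left out, and its sign turned without chow LiFKO replicate 3. The gap between diets in the LiFKO difference (AMLN minus chow) was -2.58 for Acacb and -0.58 for Acaca. These differences are in bulk liver, where fewer cells of a type and less RNA per cell cannot be told apart. Besides the lower hepatocyte sum, which Alb carries, the sum of 3 endothelial markers was higher in LiFKO. The endothelial sum was 13.75 to 13.79 in AMLN LiFKO against 12.72 to 12.98 in AMLN Control. On chow it was 13.44 to 13.60 in LiFKO against 12.88 to 13.26 in Control. This sum is carried by Stab2, the 1 endothelial marker called higher in LiFKO on either diet, while Kdr and Pecam1 were not called. Cd68, of 3 macrophage markers measured, was called higher in LiFKO on chow (11.06 against 8.84 on average) and on AMLN diet (10.88 against 9.90). Col1a1, of 4 stellate markers, was called lower in AMLN LiFKO (8.95 against 10.48), and the other macrophage and stellate markers were not called. The part of these shifts in the differences was not tested.

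**Figure D1:**
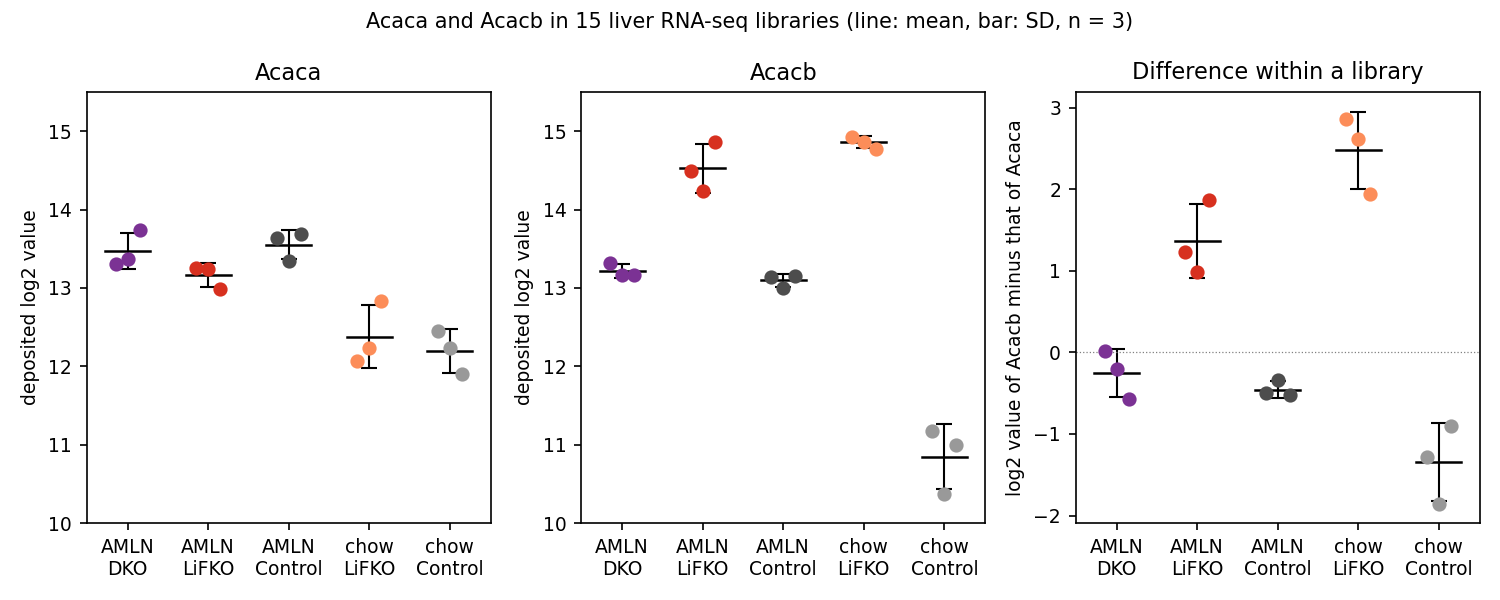
Deposited log2 values of Acaca (left) and Acacb (middle) and the Acacb value minus the Acaca value (right), 1 point per library, for AMLN DKO, AMLN LiFKO, AMLN Control, chow LiFKO and chow Control. Lines are means and bars SDs of 3 libraries. Acacb stands above 14 in all 6 LiFKO libraries and between 10.38 and 11.17 in chow Control, while Acaca separates by diet.

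Acaca averaged 13.47 ± 0.23 in AMLN DKO, 13.16 ± 0.15 in AMLN LiFKO, 13.55 ± 0.19 in AMLN Control, 12.38 ± 0.40 in chow LiFKO and 12.19 ± 0.28 in chow Control (SD, n = 3 each). From high to low its groups were AMLN Control, AMLN DKO, AMLN LiFKO, chow LiFKO and chow Control, and the libraries of the top pair of neighbours and of the bottom pair overlapped. Acacb averaged 13.22 ± 0.09 in AMLN DKO, 14.53 ± 0.31 in AMLN LiFKO, 13.10 ± 0.09 in AMLN Control, 14.86 ± 0.08 in chow LiFKO and 10.85 ± 0.42 in chow Control. Its order from high to low was chow LiFKO, AMLN LiFKO, AMLN DKO, AMLN Control and chow Control, and the top pair of neighbours overlapped. Over the 15 libraries the log2 values of the 2 genes had a Pearson r of 0.239, given as a description, since the points are 5 groups of 3.

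Both isoforms rose with AMLN diet in Control liver, with the larger log2 difference for Acacb. The log2 difference, AMLN minus chow, was 2.25 for Acacb (SE 0.17, 4.76-fold, adjusted p = 3.80e-06 by limma) and 1.36 for Acaca (SE 0.19, 2.57-fold, adjusted p = 0.000472). All 3 AMLN Control libraries were above all 3 chow Control libraries for both genes. In this comparison 11.2% of genes were called higher and 40.9% had groups that did not overlap. Acacb ranked 104 and Acaca 324 from the top. The Control libraries of both diets also gave the values by which the genes were chosen, so these p-values are not independent of the choice. The same holds for the LiFKO libraries in the comparisons that follow. In AMLN Control against chow Control, 5 of 8 hepatocyte markers were called lower (Cps1, Hnf4a, Serpina1a, Tat and Pck1) and Ttr higher. Cd68 and Cd5l, of 3 macrophage markers measured, and Col1a1 and Lrat, of 4 stellate markers, were called higher. Over all genes 11.6% were called lower. No endothelial or cholangiocyte marker was called. Whether these shifts in bulk liver touch the carboxylase values was not tested.

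In LiFKO liver Acaca was the isoform called with the diet. It rose in AMLN LiFKO against chow LiFKO by 0.78 (SE 0.19, 1.72-fold, adjusted p = 0.0360 by limma), and the groups did not overlap. For Acacb the difference was -0.33 (SE 0.17, 95% interval -0.70 to 0.04, adjusted p = 0.304), with overlapping groups. Here 1.58% of genes were called higher, and 24.9% had groups that did not overlap. The call of Acaca hung on the spread estimate and on which libraries were fitted. Its adjusted p was 0.0659 without the intensity trend, 0.0712 with only the compared groups and 0.0530 with the replicate number as a block. The adjusted p ran from 0.0534 to 0.134 without AMLN LiFKO replicate 1 (log2 difference 0.74), 2 (0.75) or 3 (0.87) or chow LiFKO replicate 1 (0.63) or 2 (0.71). Only leaving out chow LiFKO replicate 3, the highest of its group, kept the call (1.01, adjusted p = 0.0118) among the 6 fits that left out a library. Of 5 adipocyte markers only Cfd was among the measured genes, and it was at 7.18 to 7.64 in AMLN LiFKO and 8.01 to 8.92 in AMLN Control against 3.21 to 5.56 in chow LiFKO and 3.73 to 4.51 in chow Control. None of 7 muscle markers was among the measured genes. Of the 8 hepatocyte markers Ttr was called higher and Pck1 lower in AMLN LiFKO against chow LiFKO, where 2.16% of genes were called lower. Whether these shifts with diet, or that of Cfd, touch the carboxylase values was not tested.

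Deletion of Tfe3 together with Flcn went with lower Acacb, and Acaca was not called. Acacb was at 13.32, 13.16 and 13.17 in AMLN DKO, against 14.50, 14.23 and 14.86 in AMLN LiFKO, and no library overlapped. It fell by 1.31 on the log2 scale (SE 0.17, 0.403 of the LiFKO value, adjusted p = 0.000243 by limma, rank 205 from the bottom), in a comparison in which 5.97% of genes were called lower and 28.7% had groups that did not overlap. Acaca was at 13.31, 13.37 and 13.74 in DKO, all above the LiFKO values of 13.26, 13.24 and 12.99. Its difference was 0.31 (SE 0.19, 95% interval -0.10 to 0.71, adjusted p = 0.340). The AMLN LiFKO libraries also gave values by which the genes were chosen. The p-values of both genes and the rank of Acacb are therefore not independent of the choice. Of the cell type markers measured, only Cd68 (macrophage) and Stab2 (endothelial) were called in DKO against LiFKO, both lower. Whether this touches the carboxylase values was not tested.

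In DKO liver neither isoform was called against AMLN Control. The log2 difference was 0.12 for Acacb (SE 0.17, 95% interval -0.26 to 0.49, adjusted p = 0.821) and -0.08 for Acaca (SE 0.19, 95% interval -0.49 to 0.32, adjusted p = 0.894), by limma. The Acacb groups did not overlap, but by less than 0.01 between the lowest DKO and the highest Control library, and 16.7% of genes had groups that did not overlap. The sign for Acaca was positive (0.03) after scaling to reference genes and without AMLN DKO replicate 1 (0.00092). In this comparison 0.651% of genes were called, 0.449% higher and 0.203% lower. Stab2, called higher in DKO, was the only cell type marker called. The AMLN Control libraries also gave values by which the genes were chosen, so the carboxylase p-values are not independent of the choice.

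**Figure D2:**
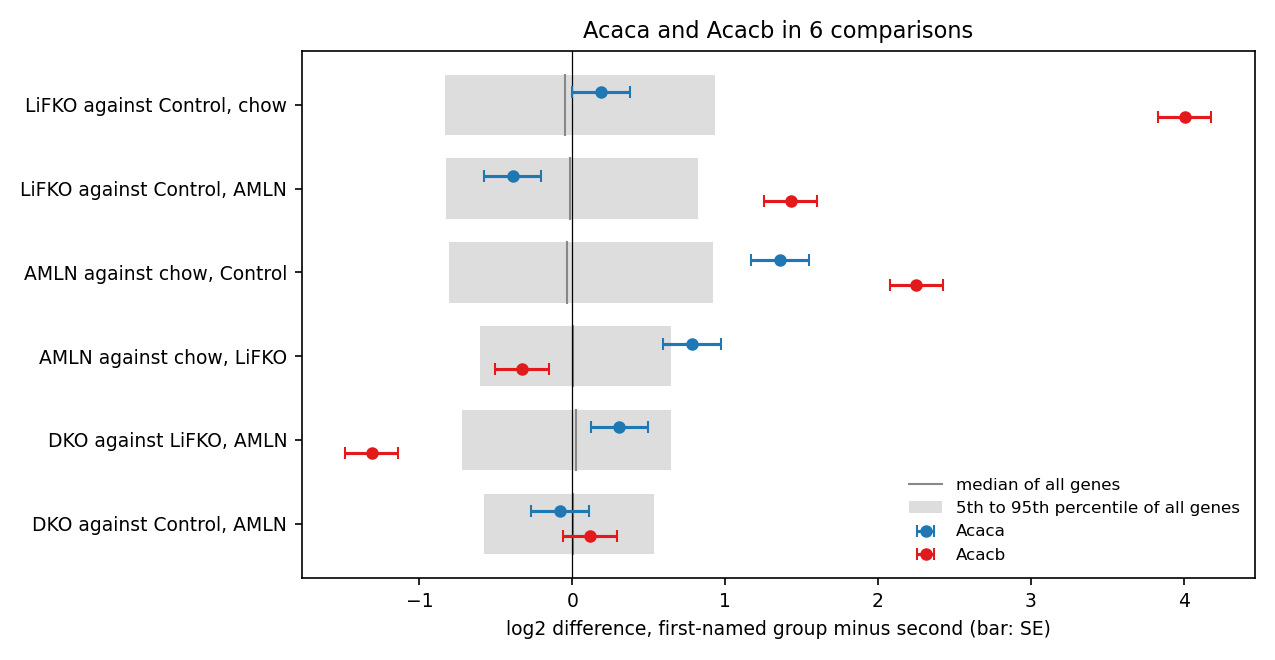
Log2 difference (first-named group minus second, bars SE) of Acaca and Acacb in 6 comparisons, over the range from the 5th to the 95th percentile of all 13815 genes (grey) and their median (line). Acacb lies above the range with loss of Flcn on both diets and with AMLN diet in Control, and below it in DKO against LiFKO. Both genes lie within it in DKO against Control.

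The difference of the 2 log2 values within a library describes the parting without regard to gene length, as only its change between groups is read. Acacb minus Acaca was 0.01, -0.21 and -0.57 in AMLN DKO, 1.24, 0.99 and 1.87 in AMLN LiFKO and -0.50, -0.34 and -0.53 in AMLN Control, and 2.86, 2.62 and 1.94 in chow LiFKO and -1.28, -1.85 and -0.90 in chow Control. It was lower by 1.62 in DKO than in LiFKO, without overlap (exact permutation p = 0.1, two-sided, n = 3 each). The AMLN minus chow difference was 0.89 in Control and -1.11 in LiFKO, again without overlap (exact permutation p = 0.1 each, n = 3 each), and DKO and AMLN Control differed by 0.20 (exact permutation p = 0.4, n = 3 each). With 3 against 3 libraries p cannot go below 0.1, so none of these 4 comparisons could pass. The LiFKO and Control values of this difference also chose the pair, so these p-values are not independent of the choice. No share of other gene pairs without overlap was computed, so nothing is read from the lack of overlap.

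The 5 genes whose log2 values followed each isoform most closely over the 15 libraries had no member in common. For Acaca they were Slc17a4 (Pearson r 0.938), Scd1 (0.925), Stap1 (0.923), BC021614 (0.919) and Scd3 (0.911). Scd1 and Scd3 are stearoyl-CoA desaturases. For Acacb they were Slc35f2 (0.966), Abcb8 (0.963), Tbc1d19 (0.962), Abcg2 (0.961) and Acot11 (0.960). Abcg2 is an export pump and Acot11 an acyl-CoA thioesterase. These r values describe 5 groups of 3 libraries normalized together.

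The genes around the carboxylases were described from a list of 44 by role, of which 42 were measured (Cpt1b and Cpt1c were not among the measured genes). The list was chosen with earlier results of these data known, so its shares of calls are a description. In counts of genes, rose and fell mean called higher and called lower by limma. Acetyl-CoA and NADPH suppliers are Acly, Slc25a1, Acss2, Me1 and G6pdx. On AMLN diet 4 of these 5 fell in LiFKO against Control and none rose, where 19.7% of all genes were called, among them Acly (ATP citrate lyase, -1.05, SE 0.24, adjusted p = 0.00589 by limma) and Acss2 (acetyl-CoA synthetase, -1.31, SE 0.18, adjusted p = 0.000181). In DKO against LiFKO 3 rose and none fell, where 11.0% of all genes were called, among them Slc25a1, the mitochondrial citrate carrier (0.56, SE 0.10, adjusted p = 0.00162). In Control 4 of 5 rose with the AMLN diet, where 22.8% of all genes were called, most Me1, the malic enzyme that makes NADPH (2.53, SE 0.43, adjusted p = 0.00138).

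Partners and modifiers of the carboxylases numbered 12. Mid1ip1 encodes a protein that promotes their polymerisation, and it fell in LiFKO against Control, with a log2 difference of -1.40 (SE 0.27, adjusted p = 0.00186 by limma) on AMLN diet and -1.69 (SE 0.27, adjusted p = 0.000330) on chow. Hlcs, which attaches biotin to carboxylases, rose in chow LiFKO by 1.34 (SE 0.22, adjusted p = 0.000530) and in AMLN Control against chow Control by 1.01 (SE 0.22, adjusted p = 0.00666). Prkaa2, a catalytic subunit of AMP-activated protein kinase, rose in LiFKO by 0.48 (SE 0.10, adjusted p = 0.00295) on AMLN diet and 0.42 (SE 0.10, adjusted p = 0.00560) on chow. In all, 2 of 12 rose and 2 fell in LiFKO on AMLN diet, 2 rose and 1 fell on chow, and 1 rose in DKO against LiFKO. The share called was 25% on chow and 8.33% in DKO against LiFKO, near the 25.7% and 11.0% of all genes, and 33.3% on AMLN diet. None of the other biotin carboxylases, Pcx, Pcca, Pccb, Mccc1 and Mccc2, was called lower in LiFKO against Control. Of these 5, 2 rose on AMLN diet and 4 on chow, where 19.7% and 25.7% of all genes were called. Mccc1 and Mccc2, of leucine breakdown, rose on chow by 0.60 (SE 0.14, adjusted p = 0.00500 by limma) and 0.44 (SE 0.11, adjusted p = 0.00844). They were the pair called on AMLN diet too, but neither was called there without AMLN LiFKO replicate 1 or 3, nor Mccc1 without AMLN Control replicate 1 or 3.

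Users and removers of malonyl-CoA included genes called in opposite directions. In LiFKO against Control on AMLN diet, the fatty acid synthase gene Fasn fell by 2.61 (SE 0.24, adjusted p = 6.27e-06 by limma). Elovl6, which lengthens the product, was called lower in AMLN LiFKO (-1.73, SE 0.25, adjusted p = 0.000277). Both rose in DKO against LiFKO, Fasn by 1.43 (SE 0.24, adjusted p = 0.00163) and Elovl6 by 1.68 (SE 0.25, adjusted p = 0.000755). Acsf3, a mitochondrial malonyl-CoA synthetase, and Cpt1a, the liver form of the enzyme that malonyl-CoA blocks, rose in chow LiFKO by 1.00 (SE 0.10, adjusted p = 7.35e-06) and 0.78 (SE 0.15, adjusted p = 0.00191). Of the 10 measured, 1 rose and 4 fell in LiFKO on AMLN diet, and 3 rose and 3 fell on chow. In DKO against LiFKO 4 rose. These shares were 50%, 60% and 40%, where 19.7%, 25.7% and 11.0% of all genes were called. With 1 library left out, the chow calls of Elovl5, Fasn and Mcat were lost in 3, 2 and 4 of 6 fits. The AMLN call of Acsf3 was lost in 3 of 6, and that of Elovl3 in DKO against LiFKO in 1 of 6. Fasn was the 1 gene of the 42 called in DKO against AMLN Control, where it fell by 1.18 (SE 0.24, adjusted p = 0.0421), and that call was lost without AMLN DKO replicate 2 or 3 or AMLN Control replicate 1 or 3.

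Among 10 upstream transcription factors, Srebf1, which encodes SREBP-1, fell by 1.35 in LiFKO against Control (SE 0.18, adjusted p = 0.000158 by limma) and rose by 1.19 in DKO against LiFKO (SE 0.18, adjusted p = 0.000842) on AMLN diet. Fasn and Srebf1 were thus lower in AMLN LiFKO, where Acacb was higher. Srebf1 was the 1 factor of the 10 called in LiFKO against Control on AMLN diet, a share below the 19.7% of all genes. On chow 4 were called lower and none higher, or 40%, where 25.7% of all genes were called. They were Srebf1 (-0.63), Mlxipl, which encodes the carbohydrate-response factor ChREBP (-0.68), Usf1 (-0.54) and Usf2 (-0.33). The call of Srebf1 was lost without chow LiFKO replicate 1 or 2 or chow Control replicate 1, that of Mlxipl without chow LiFKO replicate 2, and those of Srebf1 and Usf2 when scaled to reference genes. In DKO against LiFKO 3 were called higher, Srebf1, Usf2 and Tfeb, or 30%, where 11.0% of all genes were called. The calls of Usf2 and Tfeb were lost when any 1 library of the comparison other than AMLN DKO replicate 1 was left out. In AMLN against chow, Srebf1 rose in Control by 1.87 (SE 0.18, adjusted p = 5.19e-05) and in LiFKO by 1.15 (SE 0.18, adjusted p = 0.00732).

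Over the whole list, 5 of 42 rose and 11 fell in LiFKO against Control on AMLN diet, or 38.1%, where 10.1% of all genes rose and 9.63% fell (19.7% in all). The 5 higher calls were 1 to 3 without AMLN LiFKO replicate 1 or 3 or AMLN Control replicate 1 or 3. On chow 9 rose and 10 fell, or 45.2%, where 12.5% of all genes rose and 13.2% fell (25.7% in all). In DKO against LiFKO 11 rose and none fell, or 26.2%, where 5.05% of all genes rose and 5.97% fell (11.0% in all). This count was 6 or 7 without AMLN DKO replicate 2 or 3 or AMLN LiFKO replicate 2 or 3. With the AMLN diet 12 rose in Control and 3 were called lower, or 35.7%, where 11.2% of all genes rose and 11.6% fell (22.8% in all). The 3 lower calls, Prkaa1, Usf2 and Tfeb, were 1 or 0 with any 1 library of the comparison left out and 0 when scaled or with only the compared groups. In LiFKO 4 rose with the diet and none fell, or 9.52%, where 1.58% of all genes rose and 2.16% fell (3.74% in all), and the count was 1 or 2 without AMLN LiFKO replicate 2 or 3 or chow LiFKO replicate 1 or 2. The LiFKO difference itself changed with diet for 4 of the 42, all with a lower value on AMLN diet than on chow, where 0.282% of all genes had a higher and 0.76% a lower one (1.04% in all), and the count was 1 or 2 without 10 of the 12 libraries, all but AMLN Control replicate 3 and chow Control replicate 1. The list's median log2 difference was -0.07 in LiFKO against Control on AMLN diet and 0.04 in DKO against LiFKO. Over all genes it was -0.02 and 0.02. As the list was chosen with earlier results of these data known, nothing is read from a share above that of all genes.

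The balance of higher and lower calls depended on the scaling. When libraries were scaled to reference genes, the median of all genes in LiFKO against Control moved to 0.13 on both diets, against -0.02 on AMLN diet and -0.05 on chow as deposited. Of all genes 1962 were then called higher and 614 lower on AMLN diet, against 1392 and 1330 as deposited, and 2479 and 692 on chow, against 1723 and 1822. Of the 42 pathway genes 8 were then higher and 11 lower on AMLN diet and 9 higher and 6 lower on chow. In AMLN against chow the scaled calls over all genes were 1584 higher and 891 lower in Control and 145 and 128 in LiFKO, and in DKO they were 354 higher and 704 lower against LiFKO and 100 and 16 against Control, where the median of all genes was 0.11. The Acacb calls were the same under this scaling.

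**Figure D3:**
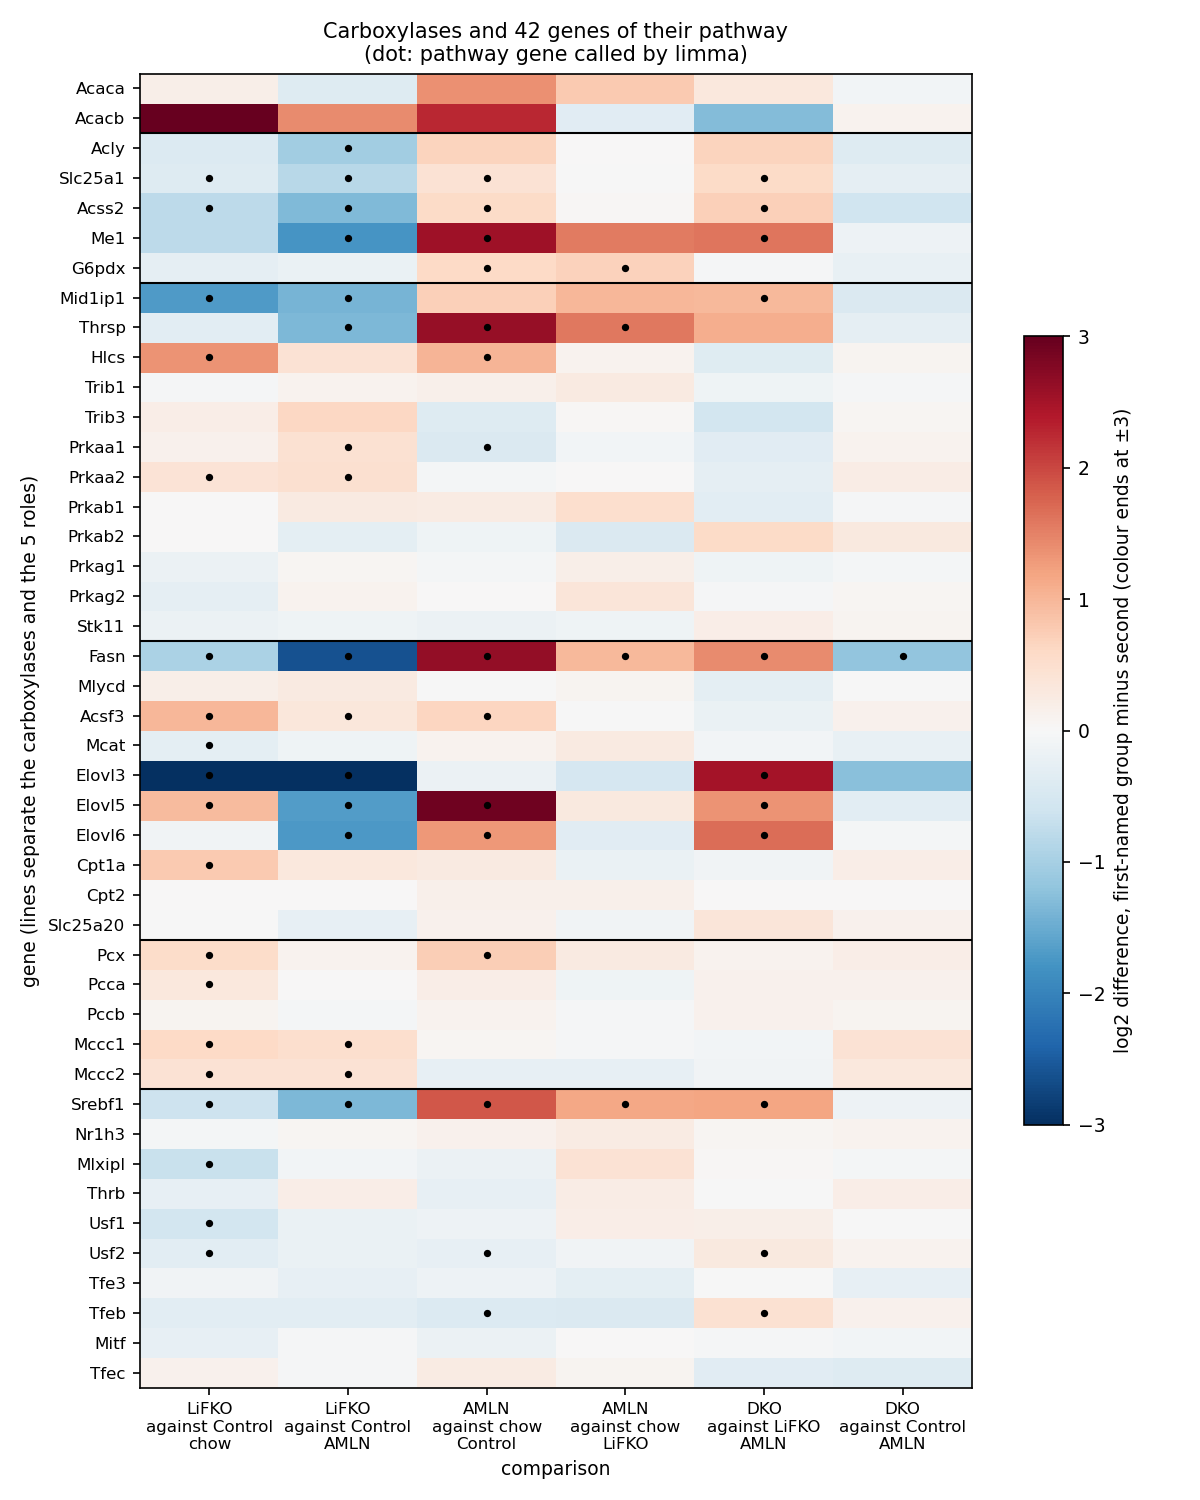
Log2 differences (first-named group minus second) of Acaca, Acacb and 42 genes of their pathway in 6 comparisons, grouped by role. A dot marks a pathway gene with adjusted p under 0.05, and carboxylases carry no dots. Fasn, Elovl6 and Srebf1 are blue in LiFKO against Control on AMLN diet and red in DKO against LiFKO, where Acacb has the opposite colours.

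Peaks were taken as the authors called them on pooled libraries, with a HOMER score, so there are no replicates and no test. Scores and ranks are read within a list. The pools and their headers did not all match the labels: in the FPC TFE3 lists of LiFKO, Control+1c and Control, the header named 1 of 3 pooled libraries as input and a TFE3 library as the input, and in the FPC HA list of LiFKO+1c 1 of 3 libraries as TFE3. The headers of the FPC TFE3 LiFKO+1c and FPC HA Control+1c lists matched the labels, and the chow headers name no single library. Peak counts and scores are therefore given also for the chow, TFE3 LiFKO+1c and HA Control+1c lists. Merged sites were counted over all lists together, and not again without the lists whose headers did not match. What the other headers mean for the values was not tested.

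On build mm9, Acaca (ENSMUSG00000020532) lies at chr11:83943174-84215153 and Acacb (ENSMUSG00000042010) at chr5:114596544-114700770, both on the plus strand. TFE3 peaks with a centre in the gene or within 10 kb of it numbered 10 at Acaca and 4 at Acacb in chow LiFKO, against 4 and 5 in chow Control. The share of all 13815 genes with at least 1 such peak was 73.7% in chow LiFKO and 48.1% in chow Control, so the presence of a peak at either gene is near the background. On FPC diet the count was 10 at Acaca and 7 at Acacb in LiFKO (71.6% of genes with a peak), against 1 and 2 in Control (41.5%), and 10 and 8 in LiFKO+1c (79.8%), against 1 and 0 in Control+1c (43.6%). At least as many peaks as at Acaca were found at 0.731% of genes in chow LiFKO and 2.95% in chow Control, and as at Acacb at 12.5% and 1.42%. In FPC LiFKO+1c the share was 1.94% for Acaca and 3.62% for Acacb. Acaca is 271980 bases long and Acacb 104227 (mm9), and the counts are not corrected for length.

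At the gene starts the TFE3 lists were alike for both isoforms. A peak lay within 1 kb of the start of Acaca, with its centre at -0.058 to -0.118 kb from it, in chow LiFKO (score 21.3), chow Control (10.5), FPC LiFKO (23.2) and FPC LiFKO+1c (27.7). The chow LiFKO peak was at chr11:83942963-83943149. At Acacb a TFE3 peak lay at -0.246 to -0.438 kb from the start in the same lists, with scores of 36.2 in chow LiFKO, 19.9 in chow Control, 20.2 in FPC LiFKO and 26.2 in FPC LiFKO+1c, and the chow LiFKO peak was at chr5:114596205-114596391. Neither start had a TFE3 peak in FPC Control or FPC Control+1c. Of 8949 genes whose strand is known, 53.5% had such a peak in chow LiFKO, 27.3% in chow Control, 45.9% in FPC LiFKO, 18.4% in FPC Control, 58.3% in FPC LiFKO+1c and 18.3% in FPC Control+1c.

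HA peaks, which mark the tagged SREBP-1c, differed between the starts. The Acacb start had one in both HA lists, with score 4.76 in LiFKO+1c (rank 1072 of 1367) and 5.44 in Control+1c (rank 1069 of 1702), where 1.31% and 1.89% of genes had one. Both scores are in the lower part of their lists. The Acaca start had none. Within 10 kb of the gene, Acaca had no HA peak in LiFKO+1c and 3 in Control+1c, and Acacb had 2 in LiFKO+1c and 1 in Control+1c, where 7.24% of genes in LiFKO+1c and 9.35% in Control+1c held one. The HA Control+1c list is the one whose header matched its labels.

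Among the sites within 10 kb, the highest TFE3 scores lay inside the genes. In Acacb the top site was 33.1 kb after the start, at chr5:114629560-114629746 in chow LiFKO, where it scored 75.8 (rank 197 of 26445). The site scored 20.5 in chow Control (rank 3192 of 11385), 50.8 in FPC LiFKO, 16.8 in FPC Control and 51.5 in FPC LiFKO+1c. Another, 15.1 kb after the start, scored 57.8 in chow LiFKO (rank 666 of 26445) and 12.2 in chow Control (rank 7401 of 11385), and no HA peak lay at either. The HA peak 8.86 kb after the start in LiFKO+1c (score 6.75) had no TFE3 peak.

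In Acaca a site 49.9 kb after the start scored 60.7 in FPC LiFKO (rank 302 of 27751), 20.9 in FPC Control, 63.2 in FPC LiFKO+1c and 17.0 in FPC Control+1c, and it held an HA peak in Control+1c (11.7, rank 215 of 1702). At the next, 68.5 kb after the start, TFE3 scored 50.4 in chow LiFKO, 22.8 in chow Control, 33.9 in FPC LiFKO and 40.1 in FPC LiFKO+1c, and HA 7.25 in Control+1c. Merging peaks that share a base gave 16 sites at Acaca and 9 at Acacb. At Acaca 11 of the 16 were in a TFE3 list of LiFKO and in no TFE3 list of Control, though the one 43.6 kb after the start held an HA peak in Control+1c (6.89), and at Acacb this held for 2 of the 8 TFE3 sites. Over the genome 58.3% of 50385 TFE3 sites were of this kind, and the LiFKO lists are longer, with 26445 peaks against 11385 in Control on chow, so the count at Acaca is near the background. No site at either gene was in all 6 TFE3 lists, as were 4.9% of all sites.

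Farther out, a pair of sites were in all 6. The site 313 kb after the Acaca start scored 110 in chow LiFKO (rank 28 of 26445) and 74.3 in chow Control (rank 21 of 11385). In these lists it was above every site within 10 kb of Acaca. In FPC LiFKO it scored 57.5, below the site 49.9 kb after the start (60.7). The site 14.8 kb before the Acacb start scored 30.8 in chow Control, 20.1 in FPC Control and 53.7 in FPC LiFKO+1c. In those lists it was above the top site of Acacb. It was below that top site in chow LiFKO (58.1 against 75.8) and FPC LiFKO (49.3 against 50.8). In the authors' deposited table of 96 peaks that differed between LiFKO+1c and LiFKO, none lay within 100 kb of either gene.

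**Figure D4:**
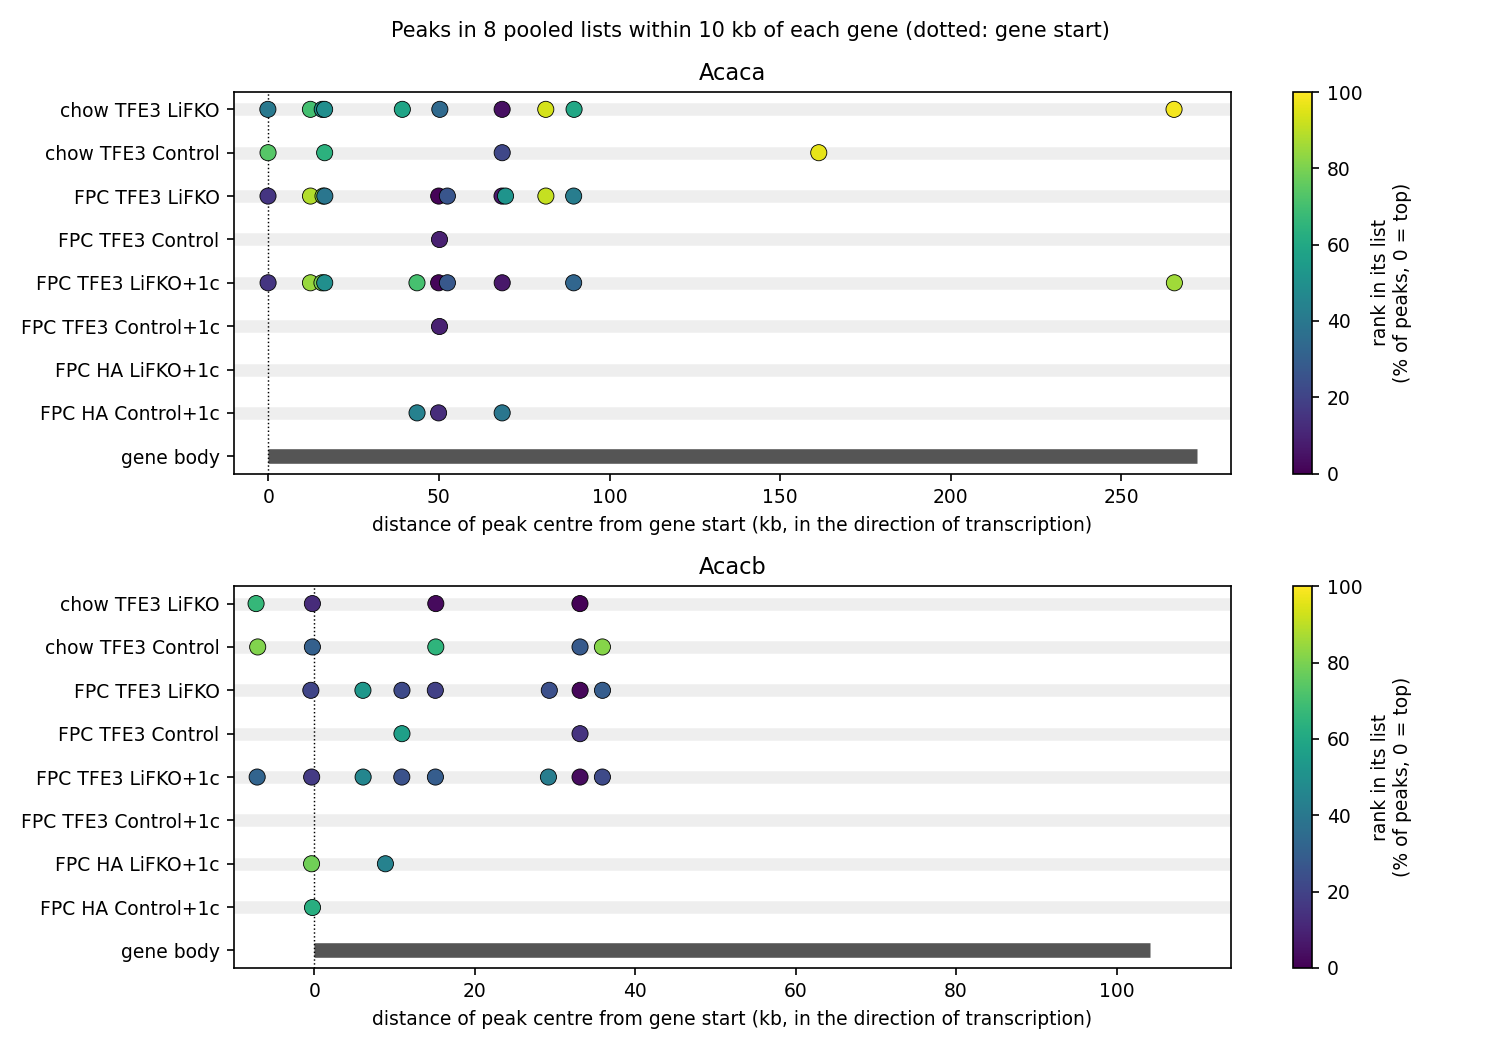
Peaks within 10 kb of Acaca and Acacb by distance of the peak centre from the gene start (kb) in 8 pooled lists, coloured by rank within the list as percent of peaks (0 is the top). TFE3 peaks are at the start of both genes and within 90 kb after it in Acaca or 36 kb in Acacb, apart from sites of low rank at 161 and 265 kb in Acaca and a site 7.1 kb before Acacb, and HA peaks are at the Acacb start in both HA lists.

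No sequence of the mm9 peaks is given here. Windows around a RefSeq transcript start of each gene (build GRCm38.p6, plus strand, 250 bases before to 50 after it) are printed, 5′ to 3′. They are chr11:84195188-84195487 for Acaca and chr5:114165268-114165567 for Acacb. Whether these windows act as promoters was not tested, so motifs found or missing in them are not read as traits of the promoters. These RefSeq starts lie 65.8 kb and 19.2 kb after the RefSeq gene starts, so the windows are not those of the start-site peaks, and no peak of any list lay within 1 kb of the same distance from the gene start in mm9.
Acaca: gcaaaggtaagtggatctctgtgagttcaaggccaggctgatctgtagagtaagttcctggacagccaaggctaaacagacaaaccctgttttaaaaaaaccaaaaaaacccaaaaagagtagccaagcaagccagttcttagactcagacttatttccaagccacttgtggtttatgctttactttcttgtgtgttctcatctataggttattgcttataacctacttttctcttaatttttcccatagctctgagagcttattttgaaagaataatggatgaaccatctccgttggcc
Acacb: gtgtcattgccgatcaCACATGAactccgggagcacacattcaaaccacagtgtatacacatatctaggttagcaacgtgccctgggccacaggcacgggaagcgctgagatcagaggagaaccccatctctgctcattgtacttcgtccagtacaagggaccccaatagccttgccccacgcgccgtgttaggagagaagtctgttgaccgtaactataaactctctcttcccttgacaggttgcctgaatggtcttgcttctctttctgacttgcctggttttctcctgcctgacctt
Capitals mark motif matches on either strand. The 3 motifs searched were CACGTG, an E-box to which TFE3 and its relatives bind, TCATGTG, the core of the M-box, and TCACNCCAC, a sterol regulatory element, and no motif contains another. The Acacb window held 1 match to TCATGTG on the minus strand at bases 17 to 23, and Acaca had none of the 3. Of 32851 RefSeq windows of the same length, 7.15% held CACGTG, 3.77% TCATGTG and 1.24% TCACNCCAC.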

How the data were processed

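For RNA-seq the authors deposited 1 table of log2 values, with 13815 genes and 15 libraries. The quartiles and maxima agreed between libraries to within 0.02, so they had been quantile normalized, and the offset is not given in the sources used here. Per the submitters' processing notes, RNA reads were handled with bcl2fastq 2.17, Trimmomatic 0.32, STAR 2.6.0c, SAMtools, featureCounts and limma on mm9, chow ChIP reads with HOMER 4.11, bedtools, SAMtools 1.7, Bowtie2 2.2.8 and Trimmomatic 0.32, and FPC ChIP reads with HOMER 4.4, bedtools, SAMtools 0.1.19, Bowtie2 2.2.6 and Trimmomatic 0.36. Deposited peak lists give HOMER peak scores of pooled libraries. Per the FPC headers, peaks were called over an input and over a background ChIP (Tfe3 knockout liver for TFE3, liver without the HA tag for HA). In the FPC TFE3 lists of LiFKO, Control+1c and Control, the library named as that input was a TFE3 library. The chow headers name no single library, so for the chow lists this was not read from library names.

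Log2 values, in place of the counts foreseen as an alternative, were fitted in limma 3.58.1 (R 4.3.3) with a mean per group over 15 libraries (10 residual degrees of freedom) and eBayes with trend. Tests were two-sided, and a call needed an adjusted p under 0.05 (Benjamini-Hochberg over the 13815 genes of a comparison). The fit was tested on simulated data. Fold changes are 2 to the power of the log2 difference. The summed marker level is the log2 of the sum of the unlogged values. Peaks counted for a gene when the centre lay in it or within 10 kb, and peaks sharing 1 base were 1 site. Strand came from RefSeq. Peaks were handled in Python 3.11.15 with pandas 2.3.3, and plots drawn with matplotlib 3.10.9. The members, the pathway list and the markers were chosen with earlier results of these data known. Named were Acaca, Acacb, Flcn and Tfe3, genes of the pathway list, and the 5 genes of highest Pearson r with each isoform, leaving out predicted names. Replicate numbers were not treated as pairs in the main fit. Same-numbered libraries deviated together in all 3 pairs for chow LiFKO and chow Control (residual r 0.113 to 0.237). They did so more weakly in all 3 pairs for AMLN DKO and AMLN Control (0.0445 to 0.144). In these comparisons the numbers may pair libraries, and in each of the others some pair had a negative residual r. A block by number within the compared groups was therefore added after the data were seen. Alternatives were leaving out each library, a replicate block, no trend, a robust prior, only the compared groups, library weights, a filter on low values, scaling to reference genes, other windows and a score threshold. RNA depth is unknown, so precision rests on 3 libraries a group.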

Additional observations from a re-analysis of the deposited data

Results flagged for a closer look

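In 4 genes of the pathway list the LiFKO difference itself differed between diets, by the interaction term in limma (AMLN minus chow, adjusted over 13815 genes, of which 1.04% were called). For Elovl5, an elongase of polyunsaturated fatty acids, the interaction was -2.64 (SE 0.37, adjusted p = 0.00763): LiFKO against Control was -1.68 on AMLN diet and 0.96 on chow. Its call was kept in all 20 alternatives. For Fasn it was -1.67 (SE 0.34, adjusted p = 0.0346), with -2.61 on AMLN diet and -0.95 on chow. For Elovl6 it was -1.64 (SE 0.36, adjusted p = 0.0474), with -1.73 on AMLN diet and -0.10 on chow. For Acsf3 it was -0.65 (SE 0.14, adjusted p = 0.0441), with 0.34 on AMLN diet and 1.00 on chow. The calls of Fasn, Elovl6 and Acsf3 were lost in 10, 12 and 15 of the 20 alternatives. The 4 calls became 1 or 2 without 10 of the 12 libraries, all but AMLN Control replicate 3 and chow Control replicate 1. The same term for Acacb and Acaca is a description, since it is made of the differences by which the genes were chosen.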

How the results depend on the processing

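For Acacb, AMLN against chow in Control ranged from 2.02 to 2.41 and DKO against LiFKO from -1.46 to -1.15 when 1 library was left out, with calls kept there and in the 8 other settings. For Acaca, AMLN against chow in LiFKO kept 0.78 but was not called with a replicate block (adjusted p = 0.0530), without the intensity trend or with only the compared groups by limma, and was 0.63 to 1.01 with 1 library left out. Acaca in DKO against Control turned to 0.025 when scaled to reference genes (8 measured of 9), and was -0.22 to 0.00092 with 1 library left out. Pathway calls were 4 for AMLN against chow in LiFKO, and 2 without trend, 2 with the robust prior, 1 with only the compared groups, and 1 to 4 with 1 library left out. For DKO against LiFKO 11 calls became 6 to 13 and for DKO against Control 1 became 0 to 1 with 1 library left out, and 0 without trend, with the robust prior or with the compared groups. The interaction's 4 calls were 2 with the replicate block, 1 without trend and 1 to 5 with 1 library left out. A replicate block within the compared groups, added after seeing the data, left chow LiFKO against Control at 19 pathway calls (9 higher and 10 lower), ended the call of Acaca for AMLN against chow in LiFKO (0.78, adjusted p = 0.0527), where 1 pathway call was left, and gave 156 calls over all genes in DKO against Control. Neither block changed another call of a carboxylase. Same-number libraries had residual correlations of -0.185 to 0.237 in 30 pairs, 7 of them over 0.1, and for 7 of 15 libraries the best match had the same number. Calls over all genes were 3154 (AMLN against chow in Control) and 4860 with library weights, 1938 to 3257 with 1 library left out, 517 (in LiFKO) and 215 with the compared groups, 273 when scaled, 175 to 497 with 1 left out, 1523 (DKO against LiFKO) and 991 to 1280 with 1 left out, 90 (DKO against Control) and 30 without trend, 15 with the compared groups, 365 with weights, 24 to 231 with 1 left out, and 144 (interaction) and 72 without trend, 533 with weights, 27 to 334 with 1 left out. At or above each list's median score, peaks at Acaca were 5 in chow LiFKO, 1 in chow Control, 6 in FPC LiFKO and 6 in FPC LiFKO+1c, and at Acacb 2 in chow Control, 1 in FPC Control, 1 in HA LiFKO+1c and 0 in HA Control+1c. With 50 kb on either end, Acaca had 2 in FPC Control and 2 in FPC Control+1c, and Acacb 1 in FPC Control+1c. With 100 kb, Acaca had 16 in FPC LiFKO, 3 in FPC Control and 2 in FPC Control+1c, and Acacb 4 in FPC Control and 1 in FPC Control+1c. With 5 kb, or a wider overlap required for a shared site, no count moved by over 1.5 times. Assignment to the nearest gene was not run, since these lists name no gene. The causes of these changes were not tested, and with 3 libraries a group and no peak replicates, small differences are not resolved.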
